A study of Mus musculus with 4 samples.

Results

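Broad methylated peaks were defined as autosomal peaks 2000 bp or more wide in any of 4 deposited peak lists, and overlapping broad peaks of the lists were merged into regions. This gave 22571 broad regions, 7.48% of the 301550 autosomal regions obtained when all peaks of the 4 lists were merged in the same way. The regions were selected on the measured peak width in all 4 lists, so their width and which lists call them broad are described here and are not findings. The assay was MeDIP-seq: an antibody to 5-methylcytosine captures methylated pieces of sheared DNA, and each sequenced piece is counted as a tag.

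All animals were ICR mice, an outbred strain, and the design asks how diabetes of a father relates to DNA methylation in his sperm and in his offspring's islets. The T2D sperm library came from founder males aged 16 weeks that were fed a diet with 33% of energy from fat and received low-dose streptozotocin at 12 weeks, with a fasting glucose of 7 to 11 mM as the criterion for T2D (type 2 diabetes). The control sperm library came from founders on a control diet at the same age. The T2D and control islet libraries came from offspring of such fathers at 3 weeks of age, with mothers on standard diet. Each group had 6 animals and 1 library. Whether the 6 animals were pooled is not in the labels. Streptozotocin itself damages insulin-producing beta cells, so diet, drug and hyperglycaemia cannot be told apart in the T2D founders. Sperm from the caudal epididymis had passed a somatic cell lysis step. With 1 library a group there was no replicate check, and no test was made. Intervals in brackets are at 95% and cover counting error only, since PCR copies of a fragment and neighbouring peaks are not independent.

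In mammals, 5-methylcytosine lies mostly at CpG dinucleotides, and most of the genome outside CpG islands is methylated in differentiated cells. An antibody enriches a fragment more strongly the more methylated CpGs it carries, so a wide MeDIP peak can mark a stretch in which methylated CpGs are dense over a long distance. CpG density at the peaks was not measured here. Sperm DNA is highly methylated and packed mostly around protamines, whereas islets are a mixture of endocrine cells in which insulin-producing beta cells are the most frequent. The deposited lists measure DNA only, so the identity of either tissue could not be checked against marker genes. Positions are on the mouse build mm9, and which genes lie there was not determined.

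Broad peaks were a larger share of the sperm lists than of the islet lists. No caller, settings or depth of the islet libraries were stated in the sources used here, so for every difference between islet and sperm lists in number, width or tags, tissue cannot be told apart from these. Broad peaks numbered 5216 of 164458 autosomal peaks in control islets, which is 3.17% (3.09% to 3.26%). The corresponding number in T2D islets was 6458 of 163824, or 3.94% (3.85% to 4.04%). Control sperm held 11061 of 175523, or 6.30% (6.19% to 6.42%), and T2D sperm held 10834 of 176823, or 6.13% (6.02% to 6.24%). The intervals of the sperm libraries lay above both islet intervals, and those of the islet libraries did not overlap each other. Peaks of 3000 bp or more numbered 325 and 388 in control and T2D islets and 1002 and 934 in control and T2D sperm.

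The share of broad peaks in the bases and tags under peaks was larger than their share in the number of peaks. For bases this follows from the selection on width, and a wider peak also has more length to hold tags. Broad peaks made up 7.83% and 9.39% of the bases under peaks in control and T2D islets, and 13.8% and 13.5% in control and T2D sperm. They held 9.49% and 11.2% of the tags in islet peaks and 15.9% and 15.5% of those in sperm peaks. Their total length was 12.4 Mb, 15.4 Mb, 26.8 Mb and 26.3 Mb in control islets, T2D islets, control sperm and T2D sperm. Their median width was 2290 bp, 2304 bp, 2322 bp and 2329 bp in the same order, close across lists that were all cut at 2000 bp. The 95th percentiles were 3051 bp, 3048 bp, 3170 bp and 3152 bp, and the maxima 4241 bp, 3854 bp, 3972 bp and 4233 bp. The widths showed no separate class of broad peaks, since the number of peaks declined without a break across 2000 bp. Just outside the threshold, from 1900 bp to under 2000 bp, the 4 lists held 1453, 1605, 2540 and 2472 peaks with a median of 53.2, 51.9, 57.5 and 58.7 tags per kb. Just inside it, from 2000 bp to under 2100 bp, they held 1127, 1279, 2065 and 2026 peaks with a median of 54.1, 52.0, 58.2 and 57.8 tags per kb.

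**Figure D1:**
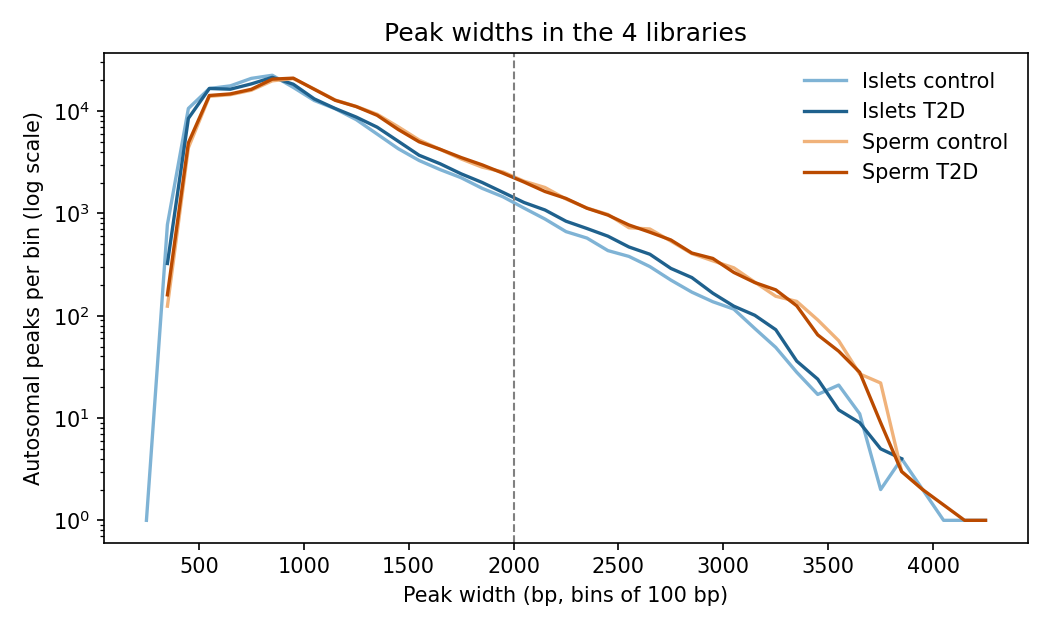
Autosomal peaks (vertical axis, log scale) in bins of 100 bp of peak width (horizontal axis, bp), 1 line for each of the 4 libraries, with the dashed line at 2000 bp. The lines decline smoothly through the threshold, and to its right both sperm lines lie above the islet lines over most of the range.

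Broad peaks had a higher tag density than narrower ones, while the enrichment that the authors deposited, a fold over the peak caller's background, was lower. A broad peak held a median of 57.9 tags per kb in control islets, 54.9 in T2D islets, 61.6 in control sperm and 61.0 in T2D sperm, against 45.5, 43.9, 49.8 and 50.1 in narrower peaks of the same lists. Median enrichment was 5.33, 5.23, 5.31 and 5.21 in broad peaks, against 7.42, 7.33, 6.91 and 6.77 in narrower ones. Both trends ran across the whole width range above 600 bp. Peaks from 600 bp to under 1000 bp had a median of 42.1, 40.6, 46.0 and 46.3 tags per kb and an enrichment of 7.55, 7.46, 7.07 and 7.05. Peaks of 2500 bp or more had 61.9, 58.3, 65.8 and 64.8 tags per kb and an enrichment of 5.03, 4.91, 5.00 and 4.90. The highest deposited scores, which are -log10 of the peak's p-value times 10, were rarer among broad peaks. A score of 200 or more was given to 1.76%, 1.64%, 1.74% and 1.403% of broad peaks and to 4.89%, 4.38%, 6.61% and 5.78% of narrower ones. Per the file headers of the sperm lists the local background was taken over 5000 bp, a window that a broad peak fills to a larger part than a narrow one, and the part of this window in the lower enrichment was not tested.

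**Figure D2:**
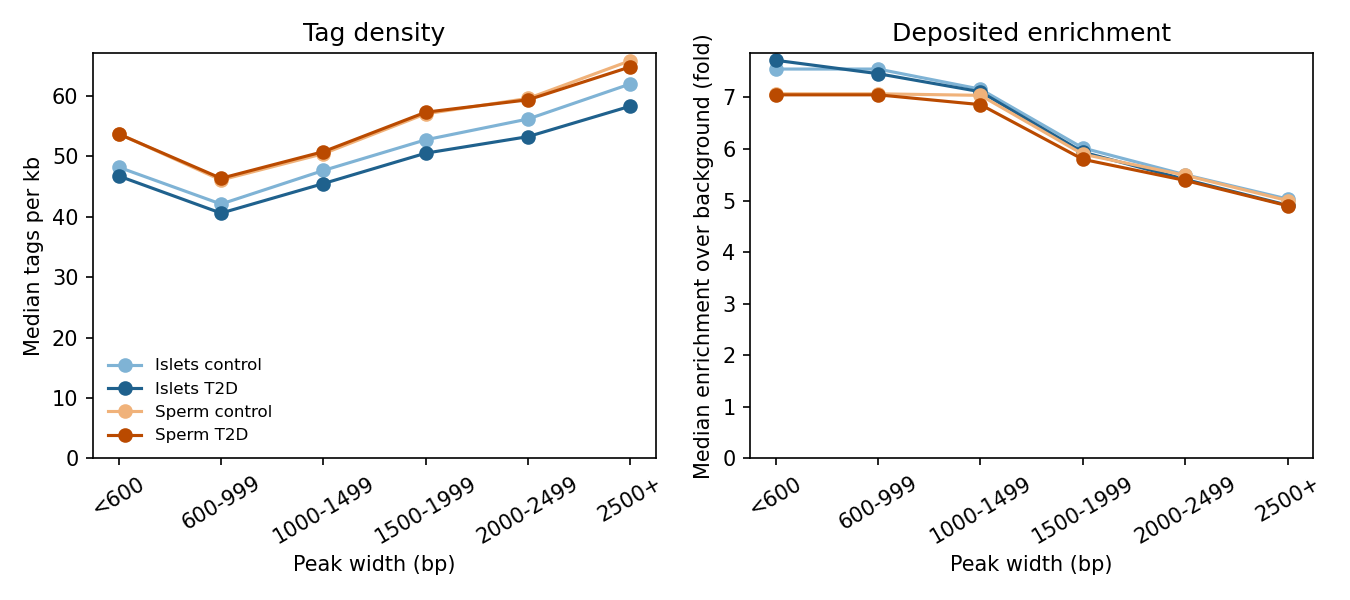
Median tags per kb (left vertical axis) and median deposited fold enrichment over background (right vertical axis) in 6 classes of peak width in bp (horizontal axes), 1 line per library and both vertical axes from 0. Tag density is highest and enrichment lowest in the class of 2500 bp or more, at 58.3 to 65.8 tags per kb and 4.90 to 5.03-fold.

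Most regions were broad in a single list, although another list usually held a narrower peak there. Of the 22571 regions, 14810 (65.6%) were broad in 1 list, 5302 in 2, 1700 in 3 and 759 (3.36%) in all 4. At any width, 9905 regions (43.9%) were called in all 4 lists, against 21.7% of all merged autosomal regions. A region chosen for its width has more length in which a peak of another list can overlap it by 1 bp, so a higher share is built into this count. Regions called in 1 list alone numbered 2220 (9.84%), against 35.5% of all merged regions, and a lower share is likewise built in. The most frequent combinations were regions broad in control sperm and called as 1 narrower peak in the other 3 lists (1822 regions), and the same with T2D sperm as the broad list (1770 regions).

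Where a list did not call a region broad, it nearly always held 1 narrower peak or none, and splitting into several peaks was rare. Of 5212 regions broad in control islets, T2D islets called 42.6% broad, 1.82% (95 regions) as several narrower peaks, 35.5% as 1 narrower peak and 20.05% not at all. Of 6457 regions broad in T2D islets, control islets called 34.4% broad, 2.68% (173 regions) as several, 46.1% as 1 narrower peak and 16.8% not at all. The sperm lists gave similar shares in both directions. Of 11055 regions broad in control sperm, T2D sperm called 41.0% broad, 1.95% (216 regions) as several, 36.2% as 1 narrower peak and 20.9% not at all. Of 10826 regions broad in T2D sperm, control sperm called 41.8% broad, 1.70% (184 regions) as several, 36.2% as 1 narrower peak and 20.3% not at all.

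Most of the single narrower peaks were under 1800 bp, and a smaller part lay close to the threshold. In the other condition of the same tissue their median width was 1502.5 bp, 1425.5 bp, 1489 bp and 1496 bp for regions broad in control islets, T2D islets, control sperm and T2D sperm, and 24.1%, 21.2%, 23.7% and 24.3% of them were 1800 bp or more. A width below 1000 bp was found in 14.5%, 18.3%, 15.4% and 14.2% of them. Within a tissue, the single narrower peaks had a higher median tag density than the broad peaks they overlapped. For regions broad in T2D islets, the single narrower control peaks had a median of 62.3 tags per kb and the broad T2D peaks 52.1. For regions broad in control sperm, the narrower T2D peaks had 66.1 tags per kb and the broad control peaks 56.9. These regions were chosen for width in the broad list, and the part of this choice in the difference was not tested. Between tissues, single narrower control islet peaks had 55.0 tags per kb where broad control sperm peaks had 61.4. Single narrower control sperm peaks had 63.4 tags per kb where broad control islet peaks had 54.4. Within a tissue every split region consisted of 2 pieces, with a median gap between pieces of 194 bp, 199 bp, 165.5 bp and 199 bp in the order given above. The pieces of a split region were thus mostly separated by a short uncalled stretch.

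Regions split in the other condition are shown here because 1 peak of a list is counted as 2 in another there. On chromosome 11 from 100306076 to 100309410, control sperm had 1 peak of 3335 bp with 476 tags, T2D sperm had 2 pieces with 415 tags and T2D islets 2 pieces with 308 tags. Control islets had 1 peak of 1384 bp with 201 tags. Both sperm libraries had nearly the same density there, 142.7 and 142.0 tags per kb in control and T2D. On chromosome 4 from 140057956 to 140061393, control sperm had 1 peak of 3438 bp with 351 tags and T2D sperm had 2 pieces with 352 tags, and control and T2D islets each had 1 narrower peak with 152 and 142 tags. On chromosome 4 the tag totals in sperm were thus nearly equal although 1 list was broad and the other was split. The reverse order was seen on chromosome 8 from 49759262 to 49762501, where T2D islets had 1 peak of 3240 bp with 275 tags and control islets 2 pieces with 231 tags. Control sperm had a broad peak with 203 tags there, and T2D sperm had no peak. The named regions that were broad in control islets and split in T2D islets had fewer tags when split. On chromosome 7 from 38975594 to 38980320, control islets had 1 peak with 250 tags and T2D islets 2 pieces with 69 tags. On chromosome 8 from 4654234 to 4657252 the tags were 143 in control and 74 in T2D islets. On chromosome 1 from 85093190 to 85096202 they were closer, at 221 and 185.

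**Figure D3:**
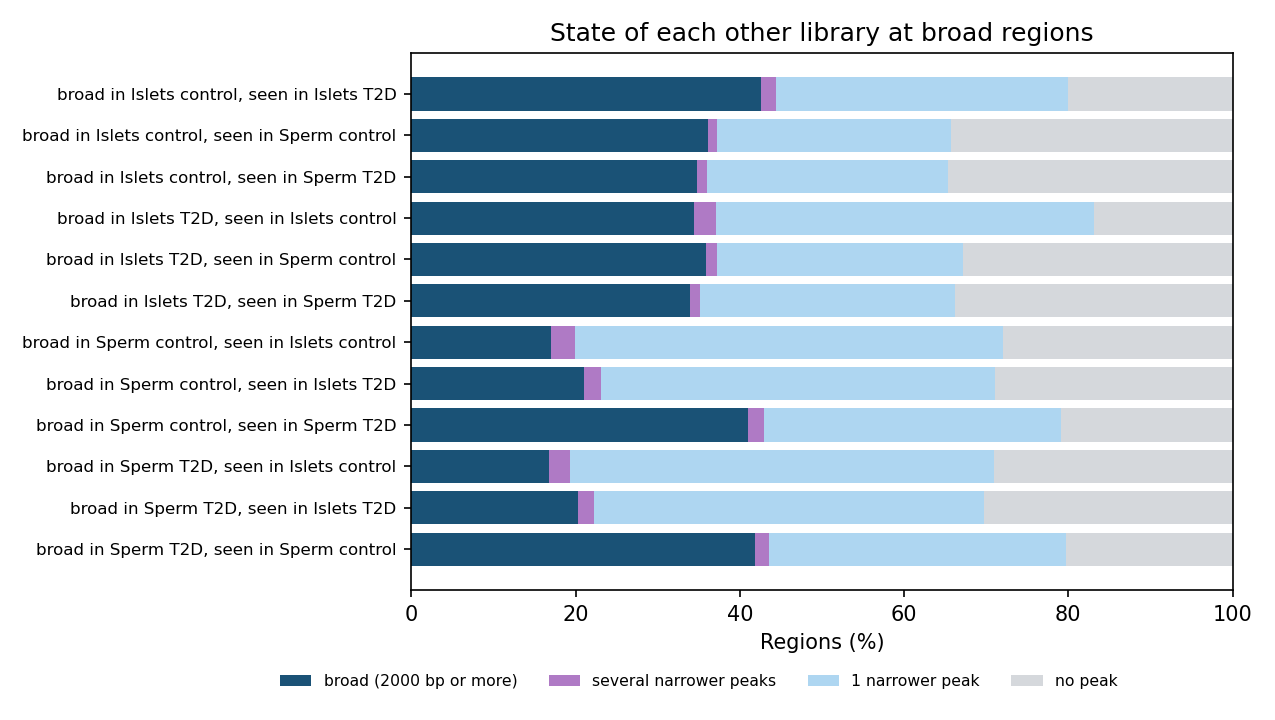
Share of broad regions (horizontal axis, %) that a second library calls broad, as several narrower peaks, as 1 narrower peak or not at all, 1 bar for each ordered pair of libraries. Several narrower peaks take 1.00% to 2.82% of a bar, and the other library of the same tissue calls 34.4% to 42.6% of the regions broad.

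The T2D islet list held more broad peaks than the control islet list, while the sperm lists were nearly equal. T2D islets had 1.24 times as many broad peaks as control islets (1.19 to 1.28), whereas T2D sperm had 0.979 times as many as control sperm (0.954 to 1.01), an interval that includes 1. Of 9449 regions broad in either islet library, 2220 (23.5%, 22.7% to 24.4%) were broad in both, 4237 in T2D alone and 2992 in control alone, a ratio of 1.42 (1.35 to 1.48). Of 17353 regions broad in either sperm library, 4528 (26.1%, 25.4% to 26.8%) were broad in both, 6298 in T2D alone and 6527 in control alone, a ratio of 0.965 (0.932 to 0.999). In islets the T2D peaks were also wider among matched peaks of any width. Among all 109337 islet peaks matched 1 to 1 between conditions, the T2D peak was the wider one in 55.7%, and among regions broad in both it was the wider one in 55.9%. In sperm the corresponding shares were 49.6% of 121309 pairs and 49.3%. At 3000 bp or more, 12.3% of islet and 14.6% of sperm regions were broad in both conditions. When the widest 5% of each list were taken instead of a fixed width, with thresholds of 1811 bp in control and 1892 bp in T2D islets, the islet ratio was 0.996, which this choice sets by construction. The islet files do not state their sequencing depth, so depth and condition cannot be told apart there. In sperm the headers give 31053754 unique tags in control and 31833988 in T2D.

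Where both conditions were broad, tag density hardly differed between them. In the 2220 shared islet regions the median was 63.4 tags per kb in control and 62.6 in T2D, and the median region ratio of T2D to control was 0.978, with quartiles of 0.883 and 1.09. In the 4528 shared sperm regions the medians were 67.3 and 66.9 tags per kb and the median ratio was 0.995, with quartiles of 0.893 and 1.11. Ratios ranged from 0.469 to 2.63 in islets and from 0.506 to 1.91 in sperm. Relative to the median pair, 30 of 2217 matched broad islet pairs (1.35%) and 65 of 4503 broad sperm pairs (1.44%) were past 1.5-fold, against 14.5% of all islet pairs and 12.8% of all sperm pairs. In the control libraries the median tag count was 136 in broad and 38 in narrower islet peaks, and 147 and 48 in sperm peaks. Among pairs with at least 100 tags in both libraries, 1.01% of broad and 5.50% of narrower islet pairs were past 1.5-fold, and 1.19% and 6.13% of sperm pairs. Being broad in both lists also fixes the widths of a pair to a narrow range, and the part of tag number and of width in the smaller spread was not tested.

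Broad peaks lacked a partner, meaning any peak in the other condition of the same tissue, less often than all peaks did. A wide peak has more length in which another peak can overlap it by 1 bp, so a lower share is built into this comparison. Against narrower peaks the order changed with the quantity on which the peaks were matched. In control islets 1051 broad peaks (20.1%, 19.1% to 21.3%) had no T2D islet peak, against 32.7% of all control islet peaks. In T2D islets 1090 broad peaks (16.9%, 16.0% to 17.8%) had no control peak, against 32.5% of all. In control sperm 2317 (20.9%, 20.2% to 21.7%) had no T2D sperm peak, against 30.0% of all, and in T2D sperm 2198 (20.3%, 19.5% to 21.1%) had no control peak, against 30.5% of all. Nearly all of these, 942, 993, 2067 and 1968 in the same order, had no peak of the other condition within 1000 bp either. Among peaks with at least 100 tags, however, the share without a partner was 19.003%, 14.5%, 20.02% and 19.3% of broad peaks, against 10.4%, 7.26%, 12.7% and 11.5% of narrower ones. From 100 to under 130 tags it was higher in each wider class from 600 bp on, in all 4 lists. The share went from 6.90%, 3.86%, 8.31% and 5.72% below 1000 bp to 18.5%, 16.0%, 19.5% and 18.6% between 2000 and 2500 bp. Counted over broad regions instead of peaks, the share absent in the other condition was 18.3% in islets and 20.6% in sperm, and it was 33.7% and 32.3% where peaks had to cover 50% of the region.

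Matching on tags per kb, score or enrichment gave other orders than matching on the tag count. Here broad peaks are set beside those from 1500 bp to under 2000 bp, in control islets, T2D islets, control sperm and T2D sperm. At 40 to 50 tags per kb the shares without a partner were close, at 21.7%, 20.2%, 24.6% and 25.3% of broad peaks against 21.7%, 19.4%, 23.4% and 24.2%. At 80 to 100 tags per kb they were 16.2%, 11.97%, 19.4% and 17.1% against 9.90%, 6.86%, 12.5% and 10.5%, higher for broad peaks in all 4 lists.

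At equal score the difference went the other way among low scores and not among high ones. At scores of 60 to 80 the shares were 28.6%, 20.3%, 29.5% and 27.6% of broad peaks against 31.9%, 29.3%, 31.4% and 32.04%, and peaks from 600 bp to under 1000 bp were at 46.9%, 47.4%, 48.5% and 48.7%. The intervals of broad peaks and of those from 1500 bp to under 2000 bp overlapped in both control lists and in neither T2D list. At scores of 100 to 150 the shares were 7.46%, 4.94%, 7.76% and 7.83% against 7.44%, 5.78%, 8.69% and 7.90%. At scores of 150 to 200 they were 3.50%, 1.85%, 3.46% and 3.32% against 1.93%, 1.52%, 2.73% and 2.05%, with overlapping intervals. At an enrichment of 4 to 5, broad peaks lacked a partner in 25.7%, 22.3%, 27.3% and 26.3%, against 32.1%, 28.1%, 30.8% and 31.1%. A higher share for broad peaks than for narrower ones thus held at equal tag count and at high tag density, and not at an enrichment of 4 to 5 or at scores below 100. Broad peaks without a partner had lower scores than broad peaks with one, at medians of 67.5, 65.7, 67.4 and 66.8 against 89.5, 84.9, 89.7 and 86.9. Their tag counts differed less, at medians of 131, 116, 144 and 142 against 137, 131, 148 and 148. An unmatched broad peak therefore held almost as many tags as a matched one but stood out less from the local background, with a median enrichment of 4.83, 4.70, 4.79 and 4.68 against 5.47, 5.36, 5.45 and 5.35. At least 1 library of the other tissue had a peak at 59.4%, 66.3%, 70.1% and 66.7% of the unmatched broad peaks. Of the matched broad peaks, 80.02%, 79.7%, 87.2% and 86.7% had one. The share over all unmatched autosomal peaks is not given here, so these values are not shown to be a trait of broad peaks.

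**Figure D4:**
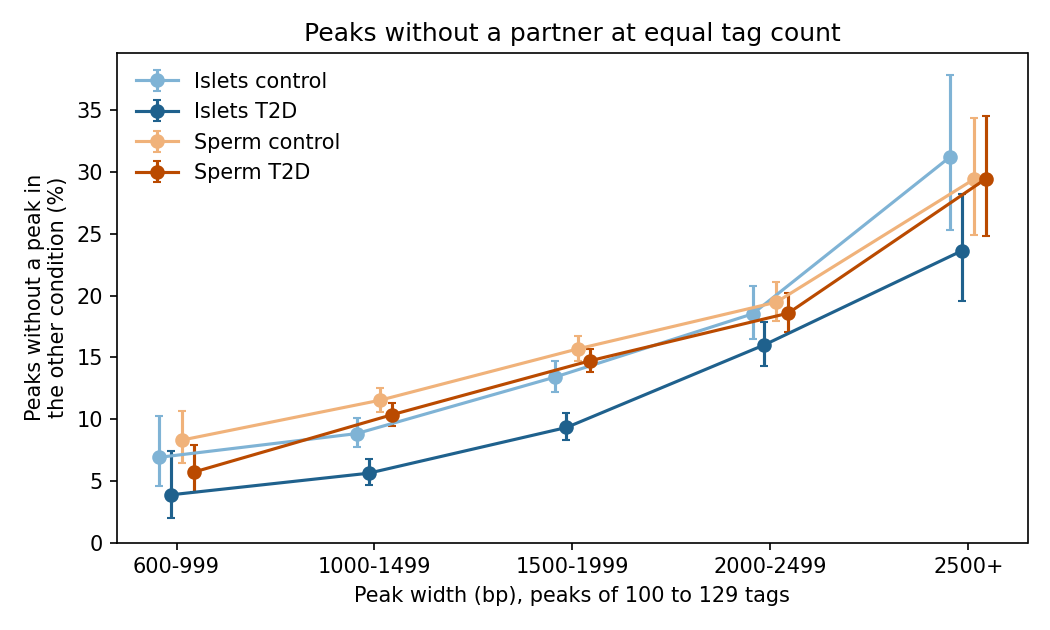
Share of peaks without a peak in the other condition of the same tissue (vertical axis, %) by peak width in bp (horizontal axis) among peaks of 100 to under 130 tags, 1 line per library, with bars for 95% Wilson intervals. The share is higher in each wider class in every library and reaches 23.6% to 31.3% at 2500 bp or more.

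Single regions show what such a missing call looks like. In control islets the widest peak was that on chromosome 1 from 87487213 to 87491513, with a width of 4241 bp and 907 tags in control islets, 804 tags in control sperm and 1049 tags in T2D sperm, all broad. T2D islets had no peak there, although the other 3 libraries had 208.6 to 253.4 tags per kb. In control sperm the widest peak was that on chromosome 10 from 127177849 to 127181820. There were 429 tags in control sperm, 448 in control islets and 400 in T2D islets, and no peak in T2D sperm. In both regions 1 library was without a call where 3 were broad and dense. The widest peak of T2D sperm, on chromosome 2 from 76546730 to 76550962, had 802 tags over 4233 bp and was called in no other library. Its enrichment was 2.97, lower than the median of 5.21 in broad T2D sperm peaks. T2D sperm was likewise the sole list with a peak on chromosome 8 from 46035536 to 46039503, where 3968 bp held 666 tags at an enrichment of 2.70. For islets, the region on chromosome 16 from 94482352 to 94486155 had 331 tags over 3804 bp in T2D islets and no peak in the other 3 lists. The region on chromosome 17 from 12461512 to 12465330 had 435 tags over 3819 bp in control islets and no peak in the other 3 lists.

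The same 759 regions were broad in all libraries of both tissues, so their share of the islet and of the sperm regions differs by how many regions each tissue had. Of the 2220 regions broad in both islet libraries, 759 (34.2%, 32.2% to 36.2%) were broad in both sperm libraries and 453 (20.4%, 18.8% to 22.1%) had no sperm peak. A further 296 (13.3%) had narrower peaks in both sperm libraries, 274 (12.3%) were called in both and broad in 1, and 438 (19.7%) were called in 1 sperm library. Of the 4528 regions broad in both sperm libraries, 759 (16.8%, 15.7% to 17.9%) were broad in both islet libraries and 544 (12.0%, 11.1% to 13.0%) had no islet peak. In islets 1368 of them (30.2%) were narrower in both libraries, 879 (19.4%) were called in both and broad in 1, and 978 (21.6%) were called in 1. A sperm broad region was thus most often a narrower methylated peak in islets, with a median of 1331 bp in control and 1419 bp in T2D islets. The shares without any peak were higher, at 31.2% of islet and 29.2% of sperm regions, where peaks of the other tissue had to cover 50% of the region.

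Complete absence from the other tissue was counted over peaks as well, so that broad and other peaks could be set side by side. Of 4165 broad control islet peaks with a T2D islet partner, 832 (19.98%) had no peak in either sperm library, against 22.7% of all such control islet peaks and 22.5% of narrower ones with at least 100 tags. For islets the share was therefore near the background. Of 8744 broad control sperm peaks with a T2D sperm partner, 1119 (12.8%) had no islet peak, against 23.0% of all such sperm peaks and 9.86% of narrower ones with at least 100 tags. For sperm the share of broad peaks was below that of all peaks and above that of narrower peaks with many tags. The greater length of broad peaks favours an overlap here as well, so a share below that of all peaks is built in.

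Among regions broad in both sperm lists, those broad in all 4 lists were the denser ones. Their median was 78.8 tags per kb in control sperm and 76.8 in T2D sperm. Without an islet peak it was 59.4 in both, and with narrower peaks in both islet lists it was 65.5 and 65.4. Regions broad in all 4 lists were also wider in sperm, at medians of 2563 bp and 2536 bp against 2395.5 bp and 2365.5 bp without an islet peak. Median enrichment was nearly equal, at 4.91 and 4.83 against 4.93 and 4.83. In islets the density difference was small. Control and T2D islets had 65.7 and 64.3 tags per kb in regions broad in all 4 lists, against 63.2 and 62.2 in those without a sperm peak.

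Among the 759 regions broad in all 4 libraries, the region on chromosome 10 from 75932204 to 75935668 was wide in every list, at 3431 bp, 3388 bp, 3411 bp and 3445 bp in control islets, T2D islets, control sperm and T2D sperm. It held 355, 324, 409 and 403 tags. All 4 lists thus placed nearly the same borders around it. The region on chromosome 13 from 38282849 to 38289947 was the widest of all, at 7099 bp. Control and T2D islets had 1 peak each of 3847 bp and 3854 bp with 437 and 431 tags, while control and T2D sperm each had 2 peaks, the wider of 3306 bp and 3356 bp, with 560 and 492 tags in all. Peak calls extended further in the sperm lists there than in the islet lists. The other 4 regions named by the same rule lay on chromosome 5 from 31491072 to 31494808, on chromosome 14 from 70838549 to 70842012, on chromosome 16 from 92390754 to 92394271 and on chromosome 7 from 30717995 to 30721716. Across all 6 regions and 4 libraries, tag density ranged from 63.2 to 119.9 tags per kb.

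The densest broad peak of each list lay in 1 of 2 regions, both of which were broad in all 4 libraries. On chromosome 2 from 98501931 to 98506021 there were 2097 tags in control islets, 1778 in T2D islets, 1264 in control sperm and 1236 in T2D sperm. Its peaks were 4091 bp, 2519 bp, 2643 bp and 2658 bp wide, which gave 512.6, 705.8, 478.2 and 465.0 tags per kb. On chromosome 15 from 74915559 to 74917708 there were 1162, 1168, 980 and 966 tags in the same order, or 549.9, 546.6, 463.1 and 468.7 tags per kb. Both regions had more tags in the islet than in the sperm libraries, although broad peaks as a whole were denser in sperm. Without an input control in the sperm peak calls, copy number and mappability at such sites cannot be told apart from methylation.

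Some broad regions were called in 1 tissue alone. The 453 regions broad in both islet libraries without a sperm peak were ranked by the narrower of their peaks. The first, on chromosome 1 from 91828118 to 91831590, had peaks of 3433 bp and 3405 bp and 249 and 269 tags in control and T2D islets. On chromosome 8 from 3994441 to 3997813 the islet peaks were 3370 bp and 3281 bp wide and had 320 and 299 tags. Both regions had no call in either sperm list. The other 4 named islet regions lay on chromosome 14 from 65698337 to 65701678, on chromosome 17 from 24522651 to 24525910, on chromosome 11 from 104351147 to 104354603 and on chromosome 4 from 155586046 to 155589388. The 6 regions had 180 to 320 tags per library.

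Among the 544 regions broad in both sperm libraries without an islet peak, the first in the same ranking was that on chromosome 3 from 108088373 to 108092199. Its peaks had 3755 bp and 3675 bp and 275 and 334 tags in control and T2D sperm. The region on chromosome 8 from 46124615 to 46128056 had the most tags of the 6 named, with 634 in control and 593 in T2D sperm, or 187.0 and 176.4 tags per kb. Its tag density was the highest among the 6, and neither islet list held a peak there. The others lay on chromosome 9 from 121354782 to 121358335 and from 120125359 to 120128902, on chromosome 5 from 130930909 to 130934470 and on chromosome 19 from 47696546 to 47699915. Enrichment in these 6 sperm regions ranged from 3.19 to 5.54.

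The father's condition did not go with the same gain or loss of broad regions in sperm and offspring islets more often than with the opposite. In 1772 regions 1 condition alone was broad in both tissues. T2D alone was broad in both tissues in 480 of them and control alone in 381. T2D in islets and control in sperm were broad in 563, and the reverse held in 348. The direction was the same in 861 regions, or 48.6% (46.3% to 50.9%), against 50.3% of 27040 merged autosomal regions that were called in 1 condition alone in both tissues, at any width. The share was near the background. Among 364 regions in which the other condition had no peak at all in both tissues, 167 had the same direction, or 45.9% (40.8% to 51.0%).

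In the 759 regions broad in all 4 lists, density differences between conditions were small in both tissues. The log2 ratio of T2D to control tags per kb had a standard deviation across regions of 0.23 in islets and 0.24 in sperm. Across these regions, which share libraries and are not independent replicates, the ratios of the tissues had a Pearson r of -0.0070 and a Spearman rho of 0.0034. After each tissue was centred on its median, 403 of the 759 regions had the same sign in both.

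Regions broad in both T2D libraries and in neither control library numbered 480. By the narrower of the T2D peaks, the first was on chromosome 5 from 116429049 to 116432675. It had 290 tags over 3609 bp in T2D islets, 343 tags over 3602 bp in T2D sperm and no peak in either control list. On chromosome 7 from 34996434 to 34999993 there were 233 tags in T2D islets and 385 in T2D sperm, and again no control peak. In the other 2 of the 4 named regions 1 control library held a narrower peak. On chromosome 10 from 127910364 to 127913735 this was control sperm, with 140 tags over 1914 bp, beside 207 tags in T2D islets and 181 in T2D sperm. On chromosome 8 from 127561347 to 127564953 it was control islets, with 177 tags over 1789 bp, beside 241 and 284 tags in T2D islets and T2D sperm.

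The reverse group, broad in both control libraries and in neither T2D library, held 381 regions. On chromosome 4 from 155603692 to 155607292 there were 350 tags in control islets and 348 in control sperm, and no T2D peak. On chromosome 5 from 101176214 to 101179586 control islets had 190 tags over 3336 bp and control sperm 253 tags over 3337 bp, while T2D islets and T2D sperm each had 1 narrower peak, of 1644 bp with 130 tags and of 1743 bp with 133 tags. The first was a missing call in both T2D lists and the second a narrower one at a density of 79.1 and 76.3 tags per kb, above the 57.0 and 75.8 of the control libraries. Missing calls and narrower calls were thus both found among these regions.

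Broad peaks were unevenly spread over the 19 autosomes, in nearly the same way in all 4 libraries. Over all lists, 3.80% of the peaks on chromosome 1 and 6.40% of those on chromosome 17 were broad, the lowest and the highest share. On chromosome 1 the shares were 2.43%, 3.02%, 4.96% and 4.65% in control islets, T2D islets, control sperm and T2D sperm, and on chromosome 17 they were 4.19%, 5.45%, 8.06% and 7.82%. In control islets, chromosome 14 was lower still, at 2.31%, and chromosome 5 was the highest, at 4.36%. Across the 19 autosomes, which share each library, Pearson's r between the shares was 0.948 for the islet libraries, 0.974 for the sperm libraries, and 0.875 and 0.895 between islets and sperm in control and T2D. The number of broad regions per Mb ran from 6.54 on chromosome 14 to 13.3 on chromosome 19, a wider range than that of all merged regions, which ran from 109 to 144 per Mb on the same chromosomes. Regions broad in all 4 lists ran from 0.164 per Mb on chromosome 14 to 0.542 per Mb on chromosome 5. The ratio of the T2D to the control share was above 1 on 19 of 19 autosomes in islets, from 1.13 on chromosome 5 to 1.42 on chromosome 19. In sperm it was above 1 on 6 of 19, from 0.918 on chromosome 15 to 1.09 on chromosome 13. The higher share in T2D islets was thus spread over the genome.

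**Figure D5:**
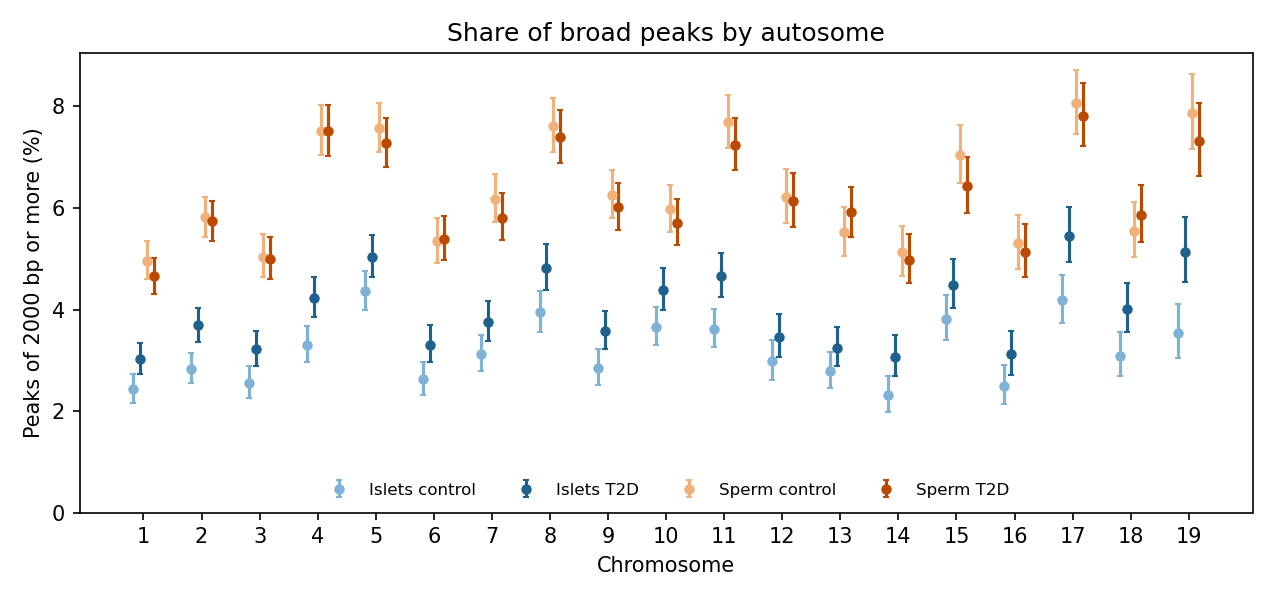
Share of autosomal peaks that are 2000 bp or more wide (vertical axis, %, from 0) on each of the 19 autosomes (horizontal axis), 1 point per library with bars for 95% Wilson intervals. The libraries follow each other from chromosome to chromosome, and on each autosome the T2D islet point lies above the control islet point, by 1.13 to 1.42 times.

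The spacing of broad regions is given beside their number, since fewer regions lie farther apart. For all 22571 regions the median gap between neighbouring broad regions was 28.9 kb, with quartiles of 10.5 kb and 75.02 kb, and 24.2% of gaps were 10 kb or less. Within a single list the median gap was 141 kb and 111 kb in control and T2D islets and 60.1 kb and 61.7 kb in control and T2D sperm. The median gap was 345 kb for the 2220 regions broad in both islet libraries, 152 kb for the 4528 broad in both sperm libraries and 980 kb for the 759 broad in all 4 lists. The nearest other peak of the same list lay at a median of 3.41 kb, 3.57 kb, 3.15 kb and 3.19 kb from a broad peak and at 4.48 kb, 4.54 kb, 4.06 kb and 4.07 kb from a narrower one. From narrower peaks with at least 100 tags it lay at 3.66 kb, 3.85 kb, 3.52 kb and 3.49 kb, closer to the value of the broad peaks.

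Runs of broad regions separated by gaps of 10 kb or less numbered 3781 and held 9237 regions (40.9%). Such a share was not computed for other peaks, so the runs are not shown to be a trait of broad regions. Of these runs, 2681 were pairs and 139 held 5 regions or more. The longest run lay on chromosome 15 from 58778421 to 58856940, where 11 regions in 78.5 kb were called broad 6 times in control islets, 4 in T2D islets, 8 in control sperm and 2 in T2D sperm. The next held 10 regions on chromosome 8 from 127425363 to 127494394, of which 3, 4, 5 and 6 were broad in the same order of libraries. A run of 9 on chromosome 5 from 116410511 to 116472155 contained the first region named above as broad in both T2D libraries alone, and had 4, 7, 4 and 3 broad regions. In none of these 3 runs did a single library call every region broad.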

How the data were processed

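MeDIP-seq peak lists of 4 libraries were used, 1 per group. Per the submitters' processing notes, build mm9 and CASAVA 1.4 were used. Per the file headers of the sperm lists, MACS called peaks without a control library on 49 bp tags, with a p-value cutoff of 1.00e-05, a local background of 5000 bp and at most 2 tags kept per position. For the islet lists, the caller was not given in the sources used here. The authors deposited, for each peak, its width and summit position in bp, a whole-number tag count that is not scaled to depth, a score of 10 times the negative log10 of the p-value (minimum 50), and a fold enrichment over background. Score and enrichment are relative to each library alone and were used as the authors gave them. Depth was stated for sperm alone, at 31053754 unique tags in control and 31833988 in T2D. Unless stated otherwise, tag counts and tags per kb are compared without a correction for depth in both tissues.

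Autosomal peaks of 2000 bp or more were merged where they overlapped by 1 bp or more. In each library a region was broad, several narrower peaks, 1 narrower peak or absent. Absence means that the list holds no call. Tags per kb are the tags of all peaks in a region over their summed width. Shares have Wilson intervals, count ratios exact binomial intervals and median ratios order-statistic intervals. Matched peaks overlapped each other 1 to 1. The members, the lists and the order of naming were chosen with earlier results of these data known. Regions were named by width or tag density within each pattern of calls, 6, 4 or 3 per pattern, and the examples of split regions and runs shown were picked from these after their values were seen. Gene families and sequences at the regions were not analysed here, since no annotation of this build was used. The alternatives were widths of 1500, 2500 and 3000 bp, the widest 5% of each list, merging within 1000 bp, 50% coverage of the region, a score of 100 or more, and lists without the densest 1% of peaks. The steps were tested on simulated data. Python 3.11.15, numpy 2.4.6, pandas 2.3.3, scipy 1.17.1 and statsmodels 0.14.6 were used.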

Additional observations from a re-analysis of the deposited data

Results flagged for a closer look

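The T2D to control difference in broad peaks was larger in islets than in sperm and had the opposite sign in these libraries. T2D islets held 1242 more broad peaks than control islets, whereas from control to T2D sperm the number decreased by 227, a ratio of 0.979 whose counting interval (0.954 to 1.01) includes 1. Regions broad in 1 condition alone gave a ratio of T2D to control of 1.42 (1.35 to 1.48) in islets. In sperm this ratio was 0.965 (0.932 to 0.999), an interval that lies just below 1. Of regions broad in both conditions, the T2D peak was the wider one in 55.9% in islets and in 49.3% in sperm. The difference between the tissues was not tested, since each tissue had 1 library per condition, and islet depth, which was not stated, cannot be told apart from condition.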

How the results depend on the processing

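Of the recomputed values, 60 stayed within the counting interval of the value reported above, 51 moved out of it and 1 reversed. Some of the 60 could not change. Merging and coverage do not enter the numbers of broad peaks or the chromosome shares, and coverage does not enter the gaps. A ratio counts as reversed where it crosses 1 and its interval as reported did not include 1. That was the islet ratio of broad peaks (1.24), which was 0.996 with the widest 5% of each list, a choice that fixes equal numbers, and 1.16 from 1500 bp and 1.13 at scores of 100 or more. The sperm ratio (0.979) was 0.932 from 3000 bp and crossed to 1.01 with the widest 5%. At scores of 100 or more it was 0.915 (0.873 to 0.959), an interval that excludes 1. The share of same direction in both tissues stayed within its interval throughout. The share broad in both conditions was 30.9%, 17.98% and 12.3% from 1500, 2500 and 3000 bp in islets, and 34.5%, 18.6% and 14.6% in sperm. It was 25.4% and 24.6% with the widest 5% and 19.9% and 20.9% at scores of 100 or more, and 22.6% in islets without the densest 1% of peaks. The share of regions absent in the other condition with 50% coverage was 33.7% for islets and 32.3% for sperm; it was 33.2% and 35.8% at scores of 100 or more, 20.6% and 24.5% from 2500 bp, 23.9% and 28.8% from 3000 bp, and 20.3% and 21.7% without the densest 1%. In sperm it was 19.5% from 1500 bp, 21.3% with the widest 5% and 20.04% when merged within 1000 bp. Islet regions absent from sperm came to 22.2% from 1500 bp, 31.2% with 50% coverage and 37.4% at scores of 100 or more. Sperm regions absent from islets came to 13.8% from 3000 bp, 29.2% with 50% coverage and 31.1% at scores of 100 or more. The share of broad peaks on chromosomes 1 and 17 was 11.6% and 16.7% from 1500 bp, 1.18% and 2.26% from 2500 bp, 0.303% and 0.561% from 3000 bp, and 3.26% and 5.13% at scores of 100 or more. Gaps of 10 kb or less made up 41.8%, 12.0% and 4.57% from 1500, 2500 and 3000 bp, 22.7% when merged within 1000 bp and 8.52% at scores of 100 or more. The ratio of tags per kb was 0.965 in islets from 3000 bp, and in sperm 1.003 from 1500 bp and 0.988 at scores of 100 or more. Stricter widths and scores leave fewer peaks, and the cause of the other shifts was not tested.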

Other observations

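Outside the autosomes, broad peaks were rarer on the X chromosome than on the autosomes of the same library. They numbered 36 of 3222 X peaks in control islets (1.12%, Wilson interval 0.808% to 1.54%), 38 of 3478 in T2D islets (1.09%), 13 of 1790 in control sperm (0.726%) and 15 of 1734 in T2D sperm (0.865%). Tags were not scaled to the copy number of the X, so copy number and methylation cannot be told apart in these shares. On the Y chromosome 1 of 32, 3 of 23, 1 of 27 and 0 of 26 peaks were broad in the same order, too few for a share to be compared.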
